A study of Rattus norvegicus with 6 samples.

Results

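The genes described here are 39 markers and products of the cells that line and support the liver sinusoids, grouped by role as 19 matrix genes, 8 stellate and mesenchymal genes and 12 endothelial genes. They were taken from a list of symbols and matched to array probes through the transcript accession each probe carries. In all, 30 of the 39 had a matched probe (36 probes of 30367 on the array), and 28 were bright enough to be tested among 16389 genes and features. Livers came from 6 male Wistar Hannover rats, bought at 4 weeks of age, quarantined for 1 week and then dosed by oral gavage for 7 days. The 3 control rats received the vehicle, corn oil, and the 3 treated rats received pregnenolone-16α-carbonitrile (PCN), a steroid ligand of the pregnane X receptor of rodents, at 100 mg/kg per day in the same way. Each liver gave 1 Cy3-labelled sample on 1 Agilent expression array, so every value below rests on 3 arrays per group. Whole liver was used, so hepatocyte RNA makes up most of each sample, and fewer cells of a type cannot be told apart from less RNA per cell.

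Hepatic stellate cells lie between the endothelium and the hepatocytes, store retinoids when quiescent, and on injury turn into contractile cells that lay down collagen. Sinusoidal endothelial cells form a fenestrated lining without a dense basement membrane and clear waste molecules through scavenger receptors. The matrix around them is built from fibrillar collagens, basement membrane collagen and laminins, and adhesive glycoproteins, and is remodelled by metalloproteinases and held in check by their tissue inhibitors (TIMPs).

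The files carry their own checks. All 14 tested hepatocyte markers lay well above background, the scanner software's mark for a spot clearly brighter than its surroundings, on all 6 arrays, and all 9 tested genes known to respond to the pregnane X receptor were higher with PCN. Between 61.6% and 68.9% of spots per array were well above background. Arrays correlated at 0.990 to 0.993 within groups and at 0.975 to 0.981 between groups. The control arrays shared 1 slide and 1 scan and the PCN arrays another, so slide, scan and treatment cannot be told apart.

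Most of these genes differed between the groups by less than the test could separate. Of 28 tested members, 1 was higher with PCN (Rgs5, a regulator of G protein signalling found in pericytes and other mural cells) and 3 were lower (the adhesive glycoprotein Fn1, the smooth muscle actin Acta2 and the endothelial cadherin Cdh5) at an adjusted p under 0.05, and 24 were not called. That is 14.3% of the tested members, where 19.9% of all tested genes were called, 4.37% higher and 15.5% lower. Of all calls 78.1% were lower, against 66% with quantile normalization, 65% with cyclic loess, 41% with median scaling, 64.4% with normexp and 96.9% when scaled on the E1A spike-in probes. In 8 members (28.6%) the 3 PCN arrays lay beyond all 3 control arrays, 1 higher and 7 lower, where this held for 41.4% of all tested genes, 14.7% higher and 26.7% lower. None of the 28 tested members reached a 2-fold change, a size passed by 9.4% of all tested genes.

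Values are log2 signals relative to the 75th percentile of each array, and fold changes are log2 differences, PCN minus control, given with the standard error (SE). The median fold change of the 28 members was -0.10 on the log2 scale, beside -0.06 for all tested genes, and 18 of 28 (64.3%) lay below 0, beside 57.6% of all genes. The scaling sets the level of all such medians: the median of all tested genes was 0.14 with median scaling and -0.34 with spike-in scaling, and that of the members was then 0.11 and -0.37. The members' 95% intervals reached 0.33 to either side at the median (from 0.24 to 0.71), and in all 24 members without a call the interval lay within a 2-fold change in either direction. The number of members lower was 1 when control rat 1 or 3 or treated rat 2 or 3 was left out, with Fn1 the one that was called each time.

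**Figure D1:**
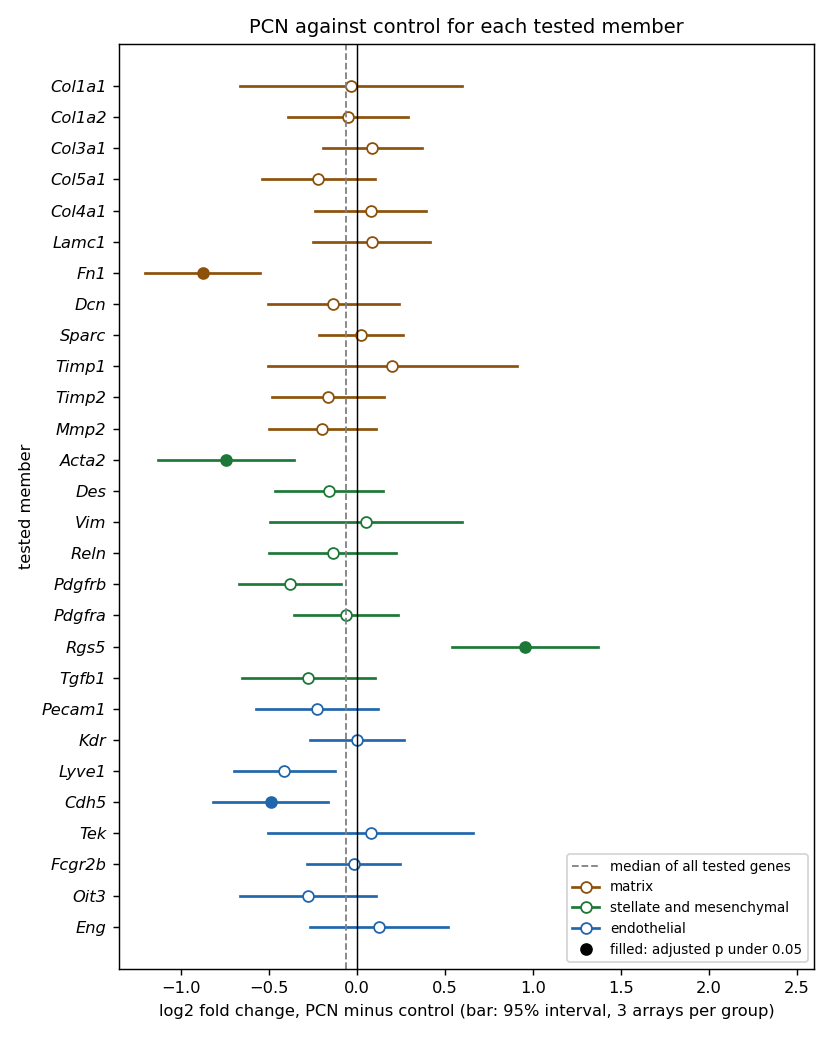
Log2 fold change, PCN minus control, for each of the 28 tested members, with its 95% interval from 3 arrays per group. Points are coloured by role and filled where the adjusted p is under 0.05, as for Fn1, Acta2, Rgs5 and Cdh5, and the dashed line marks the median of all tested genes at -0.06.

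Upstream sequences are shown for the stellate and mesenchymal genes that passed the test in opposite directions, Acta2 (lower) and Rgs5 (higher), as the 250 bases before the annotated start, read 5′ to 3′ on the gene's own strand. They come from RefSeq on the rat build GRCr8. Acta2 lies on the minus strand at chr1:241172504-241172753 and Rgs5 on the plus strand at chr13:84380827-84381076. Capitals mark the motifs that a search on both strands found.
Acta2: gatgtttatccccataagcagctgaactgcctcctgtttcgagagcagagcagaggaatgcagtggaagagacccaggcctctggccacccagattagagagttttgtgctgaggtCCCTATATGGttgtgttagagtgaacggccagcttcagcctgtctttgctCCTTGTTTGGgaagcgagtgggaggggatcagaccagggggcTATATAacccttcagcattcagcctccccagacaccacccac
Rgs5: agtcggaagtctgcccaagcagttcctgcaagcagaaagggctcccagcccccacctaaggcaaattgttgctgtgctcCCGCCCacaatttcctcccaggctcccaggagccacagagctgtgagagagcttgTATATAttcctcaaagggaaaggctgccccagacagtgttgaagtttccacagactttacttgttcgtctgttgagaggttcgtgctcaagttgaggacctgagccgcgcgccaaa

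The CArG box is the site that serum response factor binds in front of smooth muscle genes. In its strict form it matched neither sequence and 1.5% of all 33469 promoters of this length. With 1 C or G allowed among its central letters it matched Acta2 at 2 places, CCCTATATGG from position -134 and CCTTGTTTGG from position -84, counted from the annotated start, but not Rgs5, and this looser form occurred in 6.84% of all promoters. The letters TATATA stood at -42 in Acta2 and at -116 in Rgs5 and in 5.45% of all promoters. The looser box and TATATA were added after the sequences had been read. The GC box GGGCGG occurred in Rgs5 on the opposite strand (CCGCCC at -171) and in 30.5% of all promoters, and TATAAA (12.9%), TGACTCA (4.05%) and CAGATG (14%) in neither. A match describes letters only, and was not tested as a binding site.

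The fibrillar collagens form the tensile fibres that accumulate in a fibrotic liver. None of the 4 measured was called by limma, 0 had an unadjusted p under 0.05, and their median difference was -0.04. The log2 signal of Col1a1, the main chain of type I collagen, was 0.93, 0.49 and 1.32 for control rats 1 to 3 and 1.01, 0.45 and 1.17 for treated rats 1 to 3, a difference of -0.03 ± 0.26 SE (adjusted p = 0.944). Rats of the same group differed more than the groups did. Its second probe gave -0.01.

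Col1a2, the partner chain of Col1a1, was steadier. It gave 2.94, 2.99 and 3.06 in controls and 2.97, 3.18 and 2.69 with PCN, and the difference had a 95% interval from -0.39 to 0.29. Col3a1, which forms thinner fibres with type I collagen, gave 3.04, 3.25 and 3.10 in controls and 3.35, 3.24 and 3.06 with PCN, with an interval from -0.19 to 0.37. Both pairs of groups overlapped. Col5a1, a chain of the collagen that starts fibril assembly, gave -0.22 ± 0.13 (adjusted p = 0.302). Col5a2 and Col6a1 had no matched probe and were not analysed here.

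Of the basement membrane genes 2 of 5 were measured, neither was called by limma, and 0 had an unadjusted p under 0.05. Col4a1, a chain of the sheet-forming collagen, gave 1.29, 1.17 and 1.21 in controls and 1.29, 1.52 and 1.09 with PCN, a difference of 0.08 ± 0.13 (adjusted p = 0.712). Its dimmer probe gave 0.18. Lamc1, the laminin chain shared by most laminins, gave 0.04, 0.28 and 0.06 in controls and 0.29, 0.37 and -0.02 with PCN, a difference of 0.08 ± 0.14 (adjusted p = 0.715). The groups overlapped in both genes. Lamc1 was the single member, of 6 with a second tested probe, whose probes differed in sign (0.08 and -0.09). Col4a2, Lama2 and Lamb1 were not analysed here.

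Fibronectin was the matrix gene that fell. Fn1 encodes the glycoprotein that links cells to collagen, and in liver hepatocytes also secrete it into plasma as a soluble form. Its log2 signal was 5.64, 5.50 and 5.61 on the control arrays and 4.96, 4.63 and 4.53 on the PCN arrays. The groups did not overlap, and all 3 treated rats were lower than every control. The change was -0.88 ± 0.14 SE, 1.84-fold lower, with a 95% interval from -1.20 to -0.55 (adjusted p = 0.00755). A second Fn1 probe, with -0.15, -0.29 and 0.12 in controls and -0.83, -1.18 and -1.04 with PCN, fell by 0.91 ± 0.15 in the fit over all tested probes (adjusted p = 0.00888). Fn1 was called under all 18 alternatives, at -1.15 to -0.67.

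The other secreted matrix proteins and modifiers were not called. Dcn, the proteoglycan decorin that coats collagen fibrils, gave -1.37, -1.08 and -1.55 in controls and -1.47, -1.30 and -1.64 with PCN. Sparc, a collagen-binding glycoprotein, gave 4.36, 4.56 and 4.45 in controls and 4.51, 4.51 and 4.43 with PCN, and had the narrowest interval of the tested members, from -0.22 to 0.26. In both genes the groups overlapped.

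Among the protease inhibitors and proteases, Timp1, the inhibitor induced in activated stellate cells, gave -0.24, -0.11 and -1.22 in controls and -0.11, -0.34 and -0.51 with PCN. Control replicate 3 lay far below the other controls, and the interval of the difference was the widest of the members, from -0.51 to 0.91. Timp2 gave 2.42, 2.37 and 2.36 in controls and 2.35, 2.36 and 1.96 with PCN. The groups did not overlap, though PCN replicates 1 and 2 lay next to the controls, and the difference of -0.16 ± 0.13 was not called (adjusted p = 0.442). Without PCN replicate 3 it was -0.03. Mmp2, the gelatinase of mesenchymal cells, gave -0.20 ± 0.13 at its brighter probe and -0.65 ± 0.20 at the other (adjusted p = 0.329 and 0.0725, the latter from the fit over all tested probes). Lum, a collagen-binding proteoglycan, and Timp3, a matrix-bound inhibitor, were too dim to be tested. Timp3 was well above background on 1 array of each group, and Lum on 2 of 3 control arrays and 0 of 3 PCN arrays. With PCN signals raised to the dimmest signal counted as above background on each array, the PCN mean of Lum was lower by 0.69 on the log2 scale. This is no lower limit, since the control mean includes an array on which Lum was not above background. Without the filter on dim probes Lum was called lower (adjusted p = 0.0144).

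**Figure D2:**
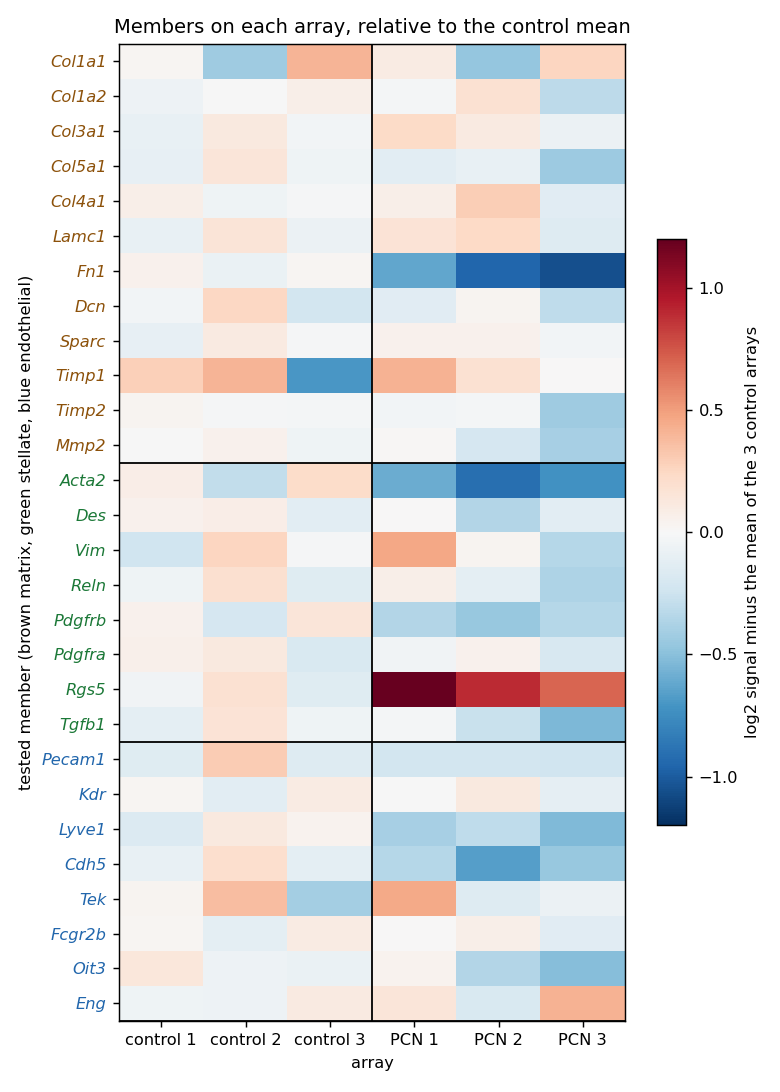
Log2 signal of the 28 tested members (rows, ordered by role) on the 6 arrays (columns), each minus the mean of its 3 control arrays, with red above and blue below that mean. On all 3 PCN arrays Fn1, Acta2, Cdh5, Lyve1, Pdgfrb, Pecam1, Timp2, Col5a1 and Tgfb1 lie below the control mean, and Rgs5 and Timp1 above it. The other rows change sides among the PCN arrays. The control cells of every row fall on both sides because their own mean is subtracted.

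The stellate and mesenchymal group held changes in both directions. Of 8 tested members 1 was higher, 1 was lower and 6 were not called (25% called, beside 19.9% of all tested genes), with a median of -0.15. That median was 0.06 with median scaling, -0.42 with spike-in scaling, 0.00 with cyclic loess and 0.01 with normexp, and it ran from -0.24 without PCN replicate 1 to -0.08 without control replicate 2.

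Rgs5 is a marker of pericytes and restrains G protein-coupled receptor signals that set vascular tone. Its log2 signal was -2.99, -2.76 and -3.09 in controls and -1.68, -2.05 and -2.25 with PCN. Every treated rat was above every control. Rgs5 rose by 0.96 ± 0.17 SE, 1.94-fold, with an interval from 0.54 to 1.37 (adjusted p = 0.0119), and was called under all 18 alternatives at 0.68 to 1.16.

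Acta2, the actin of smooth muscle and of activated stellate cells, went the other way. It gave -1.97, -2.34 and -1.82 in controls and -2.64, -2.95 and -2.77 with PCN, and the groups did not overlap. It fell by 0.74 ± 0.16, 1.67-fold (adjusted p = 0.0225). The call ended when control rat 1 or 3 or treated rat 2 or 3 was left out (adjusted p = 0.0755, 0.0692, 0.0615 and 0.0552), with median scaling, with normexp and without the filter on dim probes (0.0502, 0.0742 and 0.0618), and the change was -0.40 with normexp.

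The receptors for platelet-derived growth factor drive stellate cell growth. Pdgfrb gave -0.23, -0.49 and -0.14 in controls and -0.64, -0.74 and -0.62 with PCN. All treated rats lay below all controls, and the difference of -0.38 ± 0.12 did not pass (adjusted p = 0.0729), except with spike-in scaling (-0.66, adjusted p = 0.0109). Pdgfra, the other of these receptors, gave -0.06 ± 0.12 (adjusted p = 0.768), with overlapping groups. Whether these receptors differ from each other in their change was not tested.

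The filament proteins and Reln, a secreted glycoprotein made by stellate cells, showed no call. Des, the desmin of stellate and muscle cells in rat, gave -3.34, -3.32 and -3.52 in controls and -3.39, -3.75 and -3.52 with PCN (difference -0.16, interval -0.46 to 0.15). Vim, the intermediate filament of mesenchymal cells, gave -1.68, -1.19 and -1.46 in controls and -0.98, -1.40 and -1.78 with PCN. PCN replicate 1 held the highest and PCN replicate 3 the lowest Vim value of all 6 arrays. Reln gave -1.25, -0.996 and -1.33 in controls and -1.12, -1.31 and -1.56 with PCN (difference -0.14, interval -0.50 to 0.22). Tgfb1, the cytokine that drives collagen synthesis in stellate cells, gave -0.28 ± 0.16 (adjusted p = 0.269).

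**Figure D3:**
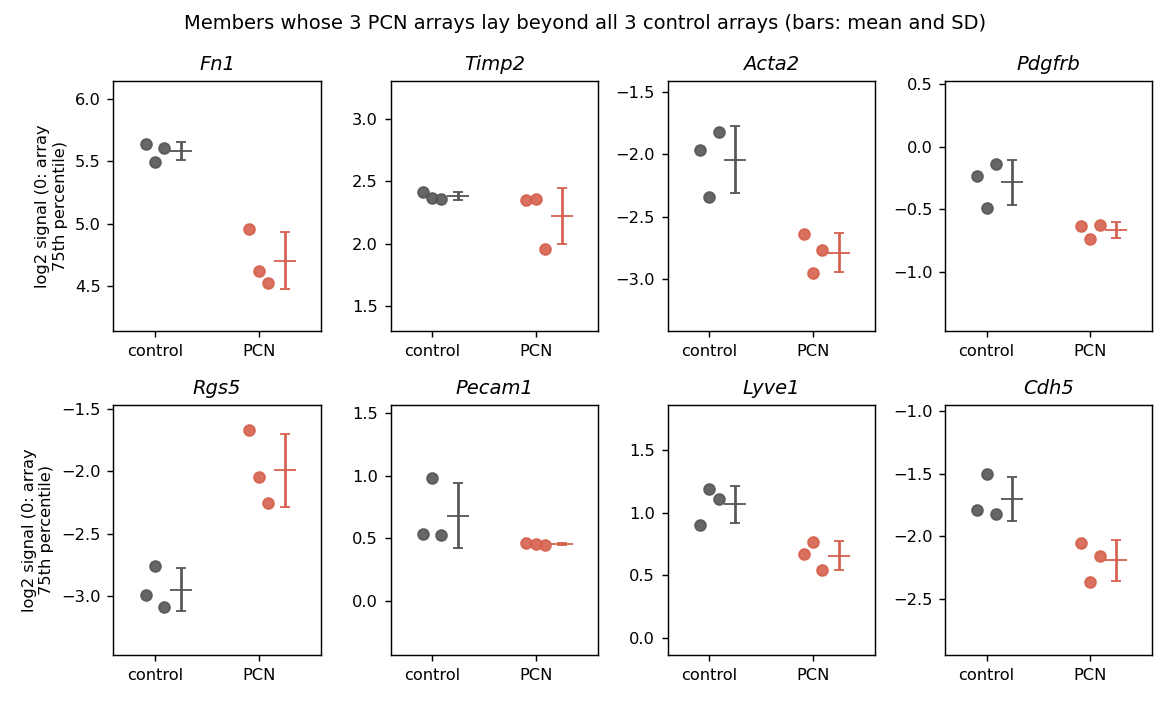
Log2 signal (0 is the 75th percentile of the array) of the 8 members whose 3 PCN arrays lay beyond all 3 control arrays, with points for arrays and bars for the group mean and SD, on axes of equal span. Rgs5 alone is higher with PCN. In Timp2, Pecam1, Pdgfrb and Lyve1 the nearest arrays of the groups lie closer together than the larger of the group SDs.

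In the endothelial group 1 of 8 tested members was lower, 0 were higher and 7 were not called. The share called was 12.5%, beside 19.9% of all tested genes, and the median fold change was -0.12. With median scaling the median was 0.08, with spike-in scaling -0.40, and without control replicate 3 -0.21. Cdh5, the cadherin of endothelial junctions, gave -1.79, -1.50 and -1.82 in controls and -2.05, -2.37 and -2.16 with PCN. The groups did not overlap. It fell by 0.49 ± 0.14, 1.40-fold, just inside the threshold (adjusted p = 0.0496), and its call ended without any 1 of the 6 arrays (adjusted p = 0.0622 to 0.134), with quantile normalization, median scaling, cyclic loess, normexp or no filter on dim probes (0.0816, 0.129, 0.0880, 0.111 and 0.126), the change being -0.28 with median scaling and with normexp. With the replicate number as a block the adjusted p was 0.127.

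Lyve1, the hyaluronan receptor of sinusoidal and lymphatic endothelium, lay just outside it. It gave 0.90, 1.19 and 1.11 in controls and 0.67, 0.77 and 0.54 with PCN, a difference of -0.41 ± 0.12 (adjusted p = 0.0557). The groups did not overlap. It was called under 3 of 18 alternatives: with normexp (-0.43, adjusted p = 0.0356), with spike-in scaling (-0.69, 0.0253) and with an intensity trend in the variance model (0.0381). None of the fits with 1 array left out called it (adjusted p = 0.0589 to 0.157). Over all alternatives the change ran from -0.69 to -0.20, with adjusted p up to 0.235.

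Pecam1, an adhesion molecule of all endothelia, gave 0.53, 0.98 and 0.52 in controls and 0.46, 0.46 and 0.44 with PCN. The groups did not overlap, yet control replicate 2 stood apart from the other controls and the difference of -0.23 ± 0.15 was not called (adjusted p = 0.320). Without control replicate 2 the difference was -0.08. Kdr, the main receptor for vascular endothelial growth factor, was among the steadiest members, at 4.42, 4.27 and 4.49 in controls and 4.39, 4.51 and 4.29 with PCN (difference 0.00, interval -0.27 to 0.27). Fcgr2b, an Fc receptor by which sinusoidal endothelium takes up immune complexes, gave -0.02 ± 0.11.

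The remaining endothelial members lay on either side of 0. Oit3, a secreted protein of sinusoidal endothelium, gave -0.28 ± 0.16. Eng, a co-receptor for transforming growth factor beta, gave 0.13 ± 0.16. Tek, the angiopoietin receptor, gave 0.08 ± 0.24, with the widest SE of the group at a mean log2 signal of -5.33 in controls. None of these was called (adjusted p = 0.279, 0.636 and 0.855), and their groups overlapped. Stab1, Stab2, Clec4g and Vwf had no matched probe and were not analysed here.

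**Figure D4:**
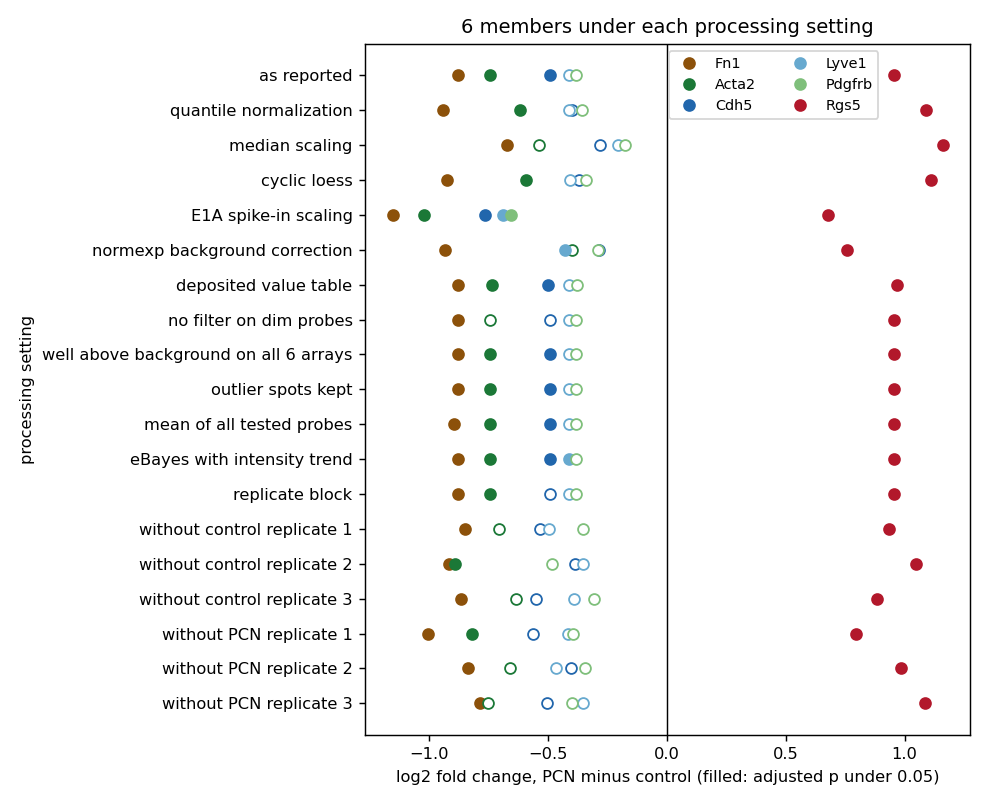
Log2 fold change, PCN minus control, of 6 members as reported and under 18 alternative settings, 12 of processing and 6 that leave out 1 array, with filled points where the adjusted p is under 0.05. Fn1 and Rgs5 are filled in every line, Acta2 and Cdh5 in part, and no point changes sides of 0.

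The arrays of the treated group were not alike for these genes. PCN replicate 3 held the lowest of the 6 values in 16 of the 28 members (57.1%), where it was the lowest for 17.3% of all tested genes. Control replicate 2 held the highest in 11 (39.3%), against 23.3% of all genes. Of the 6 arrays, PCN replicate 3 also had the lowest 75th percentile (488) and the smallest share of spots well above background (61.6%). The part of this in the members' values was not tested. The median deviation of the matrix members from their control mean was 0.03 and 0.04 on PCN arrays 1 and 2 and -0.23 on PCN array 3. That of the endothelial members was 0.00, -0.21 and -0.19. Without PCN replicate 3 the median fold change of all members was -0.03, that of the matrix members 0.01, and Fn1 (-0.79), Rgs5 (1.09), Acta2 (-0.75) and Cdh5 (-0.51) kept their directions.

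Markers of other cell types did not all move with that array. The Kupffer cell, lymphocyte and, narrowly, cholangiocyte lists had their lowest median deviation on PCN array 3, while the hepatocyte list had its highest there (0.22). The portal fibroblast and mesothelial list was lowest on PCN array 1 (-0.62). All 12 tested Kupffer cell and macrophage markers lay below 0, beside 57.6% of all tested genes, with a median of -0.38. Limma called 0 of them, beside 19.9% of all tested genes. An unadjusted p under 0.05 was found for 3, and for at least the 19.9% of all tested genes that were called. In 25% of these markers the groups did not overlap, beside 41.4% of all tested genes. Their median deviation was -0.06, -0.22 and -0.67 on PCN arrays 1 to 3, and their mean log2 signal ran from 0.91 to 0.98 in controls and from 0.19 to 0.85 with PCN. Of 8 tested lymphocyte markers 2 were called (25%, beside 19.9% of all tested genes). Cd3d and Lck, a T cell receptor subunit and its kinase, fell by 0.66 and 0.67 (adjusted p = 0.0108 and 0.0203). Lck, of which 1 of 3 PCN signals passed the background mark, lost its call when control rat 2 or 3 or treated rat 2 or 3 was left out (0.0662, 0.0688, 0.0563 and 0.0590) and turned to 0.06 with normexp. For this list the median deviation was 0.08, -0.19 and -0.84 on PCN arrays 1 to 3. The mean signal of these markers ran from -3.71 to -3.47 in controls and from -4.35 to -3.66 with PCN, and the T cell gene Cd2 stayed below the background mark on all 6 arrays. The part of these cells in the results for the members was not tested.

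Hepatocyte, bile duct and capsule markers gave a mixed picture. The 14 hepatocyte markers had a median of 0.03, and 1 was called (7.14%, beside 19.9% of all tested genes). That was the transcription factor Hnf4a, which was higher (0.63, adjusted p = 0.0160). The mean log2 signal of this list ran from 5.43 to 5.61 in controls and from 5.27 to 5.76 with PCN. Hnf4a lost its call without control replicate 3 (adjusted p = 0.0565), without the filter on dim probes (0.0521), with the replicate block (0.0641) and with spike-in scaling (0.35, 0.0993). Of 5 cholangiocyte markers 0 were called by limma, beside the same 19.9%, and 1 had an unadjusted p under 0.05. Their median was -0.02, and their mean signal ran from -2.48 to -2.40 in controls and from -2.44 to -2.37 with PCN. Of 5 tested portal fibroblast and mesothelial markers 0 were called, again beside 19.9%, and 3 had an unadjusted p under 0.05 (median -0.61). At least the 19.9% of all tested genes that were called also had an unadjusted p under 0.05. The mean signal of the portal fibroblast and mesothelial markers ran from -2.51 to -2.37 in controls and from -2.95 to -2.86 with PCN. The portal fibroblast markers Thy1 and Gli1 were not well above background on any array.

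**Figure D5:**
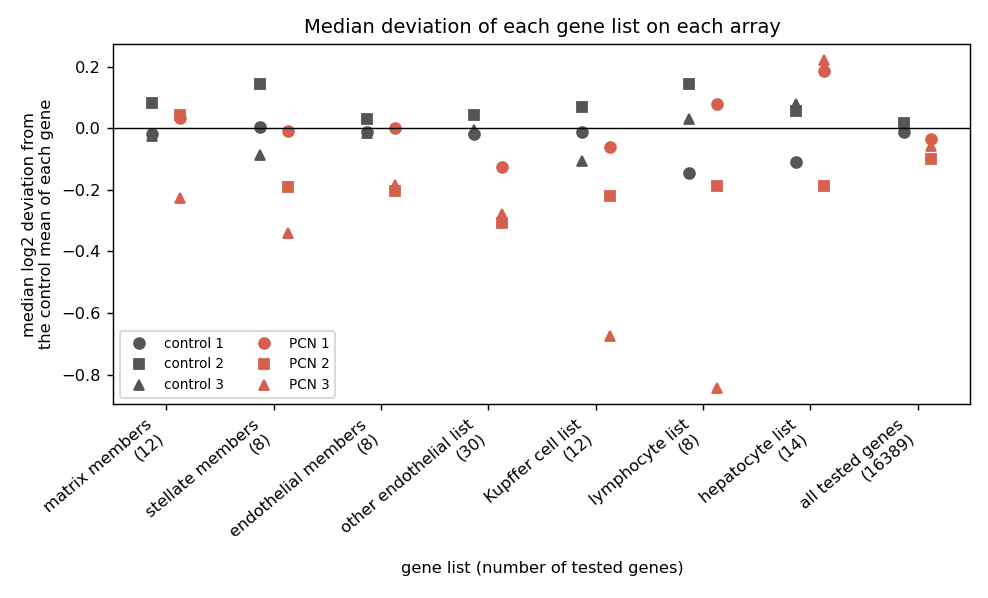
Median over the tested genes of a list of the log2 deviation from each gene's control mean, for each array (grey control, red PCN, with the symbol giving the replicate). PCN array 3 is the lowest array for matrix and stellate members and for the Kupffer cell (-0.67) and lymphocyte (-0.84) lists, while all tested genes stay between -0.10 and 0.02.

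The wider matrix, beyond the members, was measured through lists written from general knowledge, with earlier results of these data known. Of 25 tested further matrix components 0 were higher and 3 lower (12% called, beside 19.9% of all tested genes), with a median of -0.18. Lamb3, a chain of epithelial laminin, fell by 1.04 ± 0.20, Col5a3 by 0.67 ± 0.14 and the basement membrane linker Nid2 by 0.48 ± 0.12 (adjusted p = 0.0147, 0.0186 and 0.0368). Col5a3 lost its call when control rat 1 or 2 or treated rat 1 was left out (adjusted p = 0.0653, 0.0590 and 0.0548), and Nid2 without any 1 array (0.0544 to 0.112). With normexp the changes were -0.12, -0.27 and -0.12, none called. Postn, Tnc and Thbs1, matrix proteins of activated fibroblasts, were not well above background on any of the 6 arrays.

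Collagen processing and turnover held 20 tested genes, of which 0 were higher and 2 lower (10% called, beside 19.9% of all tested genes, median -0.11). Mmp14, the membrane protease that activates Mmp2, fell by 0.46 ± 0.11 and Ctsk, a collagen-cleaving cathepsin, by 0.43 ± 0.09 (adjusted p = 0.0258 and 0.0216). With 1 array left out, Mmp14 was called only without PCN replicate 2 and Ctsk only without PCN replicate 1 or 2, with adjusted p up to 0.0897 and 0.0708 otherwise. With median scaling Mmp14 was -0.26 and Ctsk -0.22, neither called. Mmp3, Mmp8, Mmp9, Mmp10, Mmp11, Mmp13 and Fap were not well above background on any array.

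In signalling by transforming growth factor beta and platelet-derived growth factor, 1 of 26 tested genes was higher and 2 were lower (median -0.07). That is 11.5% called, beside 19.9% of all tested genes. Smad1, a transducer of bone morphogenetic protein signals, rose by 0.53 ± 0.13, the type I receptor Tgfbr1 fell by 0.51 ± 0.11, and Lrrc32, which holds latent transforming growth factor beta on the cell surface, fell by 1.20 ± 0.33 (adjusted p = 0.0369, 0.0222 and 0.0474). With 1 array left out, Smad1 was called only without PCN replicate 1, Tgfbr1 only without PCN replicate 2 and Lrrc32 only without PCN replicate 1 or 2. Lrrc32, well above background on 1 of 3 PCN arrays, gave -0.02 with normexp. Smad1 was 0.25 with spike-in scaling and Tgfbr1 -0.31 with median scaling, neither called.

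Further stellate cell genes gave 0 higher and 2 lower of 19 tested (10.5% called, beside 19.9% of all tested genes, median -0.15). Lrat, which esterifies retinol for storage in stellate cells, gave 0.77, 0.95 and 0.61 in controls and -0.29, -0.35 and -1.04 with PCN. The groups lay far apart, and Lrat was lower under all 18 alternatives (-1.61 to -1.09). Gucy1a1, a subunit of the nitric oxide receptor, fell by 0.53 ± 0.13 (adjusted p = 0.0368), was called with 1 array left out only without PCN replicate 2, and gave -0.32 with median scaling and -0.29 with normexp, neither called. Of 15 smooth muscle and pericyte genes 0 were higher and 2 lower (13.3% called, beside the same 19.9%, median -0.01). Smtn, smoothelin, fell by 0.59 ± 0.11 (adjusted p = 0.0144) and held in all 6 fits with 1 array left out, and Notch3, a receptor of mural cells, fell by 0.76 ± 0.21 (adjusted p = 0.0468), was called in those fits only without PCN replicate 3, and gave -0.14 with normexp.

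Further endothelial genes gave the highest count called among these lists, and were also the list with the most tested genes. Of 30 tested genes 5 were lower and 0 higher. That is 16.7% called, beside 19.9% of all tested genes (15.5% called lower). In 16 (53.3%, beside 41.4% of all genes) the groups did not overlap, 14 of them lower. The median was -0.26, and 24 of 30 (80%, beside 57.6%) lay below 0. Flt4, the receptor for lymphatic growth factors that sinusoidal endothelium also carries, gave -1.95, -1.91 and -1.81 in controls and -2.51, -2.85 and -2.51 with PCN. It fell by 0.73 ± 0.13 (adjusted p = 0.0108) and was lower under all 18 alternatives (-1.01 to -0.43). The groups lay apart in Flt4 by more than the range within either.

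Of the dimmer endothelial genes, Dll4, a Notch ligand, fell by 0.74 ± 0.12 (adjusted p = 0.00864), held in all 6 fits with 1 array left out and gave -0.09 with normexp (adjusted p = 0.516). Wnt9b, a Wnt ligand made by endothelium around the central vein, was well above background on 3 of 3 control arrays and 0 of 3 PCN arrays. Wnt9b was 2.45-fold lower, with a 95% interval from -1.67 to -0.92 on the log2 scale (adjusted p = 0.00310). Raising any PCN signal that lay below the dimmest signal counted as above background on its array left this estimate at 2.45-fold. With normexp Wnt9b gave 0.00, and the cause of that difference between settings was not tested.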

How the data were processed

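Total liver RNA (100 ng, Cy3) was hybridised to 1-colour Agilent arrays, and the authors deposited the scanner output. Per the file headers, version 10.7.3.1 of Agilent's Feature Extraction software wrote it. The processed signal is a spot intensity, background-subtracted by that software, per the file headers. The deposited value table was found to be a linear ratio of this intensity to the 75th percentile of each array, uncentred, with column medians of 0.12 in controls and 0.10 to 0.11 with PCN. It served as an alternative. The deposited quality marks for background and outlier spots are flags from the same files. The sources used here do not give the authors' test.

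Here log2 processed intensity minus the log2 75th percentile of each array was used. Control spots and outlier spots were left out, spots of a probe were averaged, and a probe was tested if well above background on all 3 arrays of a group, which left 18329 of 30367 probes. A probe counted as above background on an array where at least 50% of its spots did. A gene with several probes was represented by the brightest. Of the probes 18004 had a symbol, matched by transcript accession to RefSeq (GRCr8). The files name build rn4, so no coordinates are given other than the GRCr8 windows of the upstream sequences. Of the 39 members 28 had an upstream sequence.

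Tests used limma 3.58.1 in R 4.3.3 (lmFit, eBayes, Benjamini-Hochberg over 16389 genes and features, 3 against 3 arrays) and were checked on simulated data. The p-values set the difference between the groups against the spread between rats within a group. That difference includes any between the slides and scans. No spot was saturated, and the 75th percentile ran from 633 to 758 in controls and from 488 to 627 with PCN. The number of arrays limits the precision. Alternatives changed the normalization, the background correction (normexp with an offset of 50 on median signals, as mean signals were not used here), the filters, the variance model and the arrays included.

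Members and lists were chosen with earlier results of these data known. Values on each array are given for every called member, for up to 3 uncalled members in list order in each of 5 groups (fibrillar collagens, basement membrane, other matrix genes, stellate, endothelial), and for uncalled members without overlap, and from each further list up to 3 called genes with the smallest adjusted p are named. Genes below background on all arrays and any others were named after their values were seen.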

Additional observations from a re-analysis of the deposited data

How the results depend on the processing

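Fn1 and Rgs5 were called under all 18 alternatives, Acta2 under 11 and Cdh5 under 6, and 22 of the 24 uncalled members under none. Of the 29 called genes of the other lists, 12 were called under every alternative that gave a value and 16 without any 1 array. Each of these counts includes the 9 tested genes known to respond to the pregnane X receptor. Apart from those, Cd3d, Flt4 and Lrat alone were called under every alternative. Among all genes, 716 were higher as reported, and 2686 with median scaling, 1093 with cyclic loess, 156 with spike-in scaling, 283 without the filter on dim probes and 291 to 543 with 1 array left out. The 2547 lower became 4945 with spike-in scaling, 1435 with normexp and 1684 without the filter. The 3 members lower became 1 with median scaling, 5 with spike-in scaling and 1 to 2 with 1 array left out. With median scaling and spike-in scaling the median fold change of all members was 0.11 and -0.37, of matrix members 0.16 and -0.32, of endothelial members 0.084 and -0.40 and of stellate members 0.059 and -0.42. The stellate median was -0.00346 with cyclic loess and 0.00694 with normexp, and with 1 array left out the median of all members was -0.16 to -0.03, of matrix members -0.099 to 0.0099, of stellate members -0.24 to -0.079 and of endothelial members -0.21 to -0.077. Sox7 was 2.05-fold lower as reported (95% interval -1.61 to -0.47 on the log2 scale), with none of its 3 PCN signals well above background. With normexp, Lck turned to 0.058 (adjusted p = 0.741) and Sox7 to 0.070 (adjusted p = 0.721). The cause was not tested. Same-numbered rats shared only a number: their deviations correlated at -0.10, -0.026 and -0.052, and with the replicate block 306 genes were higher, 1761 lower, and 2 members lower (Fn1 and Acta2). Signal over background limits the dim genes, and 11 members had no tested probe.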
